A study of Mus musculus with 10 samples.

Results

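The genes described here build the contacts between neighbouring cells: the classical and other cadherins, the claudins, the connexins, and a set of plaque and other junction proteins that includes *Tjp1*, *Tjp3*, *Ocln*, *Epcam*, *F11r* and *Cgn*. They were chosen by symbol (Cdh, Cldn or Gja to Gjd followed by a number, and the names of the set), leaving out Cdh5 and Cdh6. The rule itself used no measured value, although it was chosen with earlier results of these data known. It took 59 of the 21792 genes with deposited values, namely 17 cadherins, 21 claudins, 14 connexins and 7 plaque and other junction proteins. RNA was measured in the kidney cortex of 10 wild-type male C57BL/6 mice, aged 8 weeks at the start of the experiment. The 6 AAN mice (aristolochic acid nephropathy) had received aristolochic acid at 5 mg/kg in a single intraperitoneal injection, and the 4 sham mice the same amount of PBS, in which the acid was dissolved. All were killed at day 28. Each library came from 1 mouse, named here by the tag of its label: B607, B634, B636 and H249 in the sham group, and A483, B614, B630, B639, B642 and B666 in the AAN group.

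Aristolochic acid is a plant toxin that enters the proximal tubule and leaves atrophic tubules, fibrosis and leukocytes in the cortex. Classical cadherins hold cells together by binding the same cadherin on the next cell, and catenins tie them to actin. Claudins form the strands of the tight junction, and which claudins a tubule segment makes sets whether ions and water pass between its cells. Connexins assemble into gap junction channels that let small molecules pass from cell to cell. Because whole cortex was sequenced, fewer cells of a type and less RNA per cell cannot be told apart in any value below.

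Values are FPKM (fragments per kilobase of a gene's model, scaled to 1 M fragments of the library), and fold changes are differences of log2(FPKM + 0.1), AAN minus sham, which understate the change of low genes. A gene was called when its adjusted p in limma (Benjamini-Hochberg over 17129 genes) was at most 0.05 and its fold change at least 2, or at most 0.5 for a fall. Depth was 15.8 to 17.5 M fragments in sham mice and 13.4 to 16.5 M in AAN mice. Most genes had higher FPKM in AAN: the median log2 fold change of all genes tested was 0.75, and rescaling by the median of ratios brought it to 0.06. For the junction genes named with a fold change, the value after that rescaling is therefore given as well. The tissue carried tubule, stromal and leukocyte RNA by marker genes, and their summed levels differed between the groups. The 9 proximal tubule markers summed to 2343 to 4556 FPKM in sham mice and 734 to 2328 FPKM in AAN mice, the 8 injured tubule markers to 189 to 299 FPKM in sham mice and 1511 to 3831 FPKM in AAN mice, the 8 fibroblast markers to 16.2 to 22.3 FPKM in sham mice and 116 to 264 FPKM in AAN mice, and the 8 leukocyte markers to 12.1 to 21.5 FPKM in sham mice and 202 to 596 FPKM in AAN mice. None of these markers was at 0 in all mice of a group. Their part in the results below was not tested.

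Of the 59 junction genes, 44 passed the filter of a mean of at least 0.1 FPKM. Among these, 21 were called higher in AAN and 1, *Cldn10*, was called lower, while 22 were not called. The background was 35.8% of all genes tested called higher and 3.43% called lower. Without the limit on the fold change, 27 junction genes were higher and 2 lower, against 55.4% and 6% of all genes. The AAN values lay wholly above the sham values in 24 junction genes, against 40.3% of all genes, and wholly below them in 1, against 3.25% of all genes. The median log2 fold change of the 44 genes was 0.99 as deposited and 0.24 after the median of ratios. Of the 22 called genes, all kept their sign under that rescaling, and 14 of the 21 risers and *Cldn10* were still called. Among the 7 others were *Cldn7*, *Epcam*, *F11r*, *Gjc1*, *Tjp1* and *Tjp3*. Counted over all 44 genes, 14 were then higher and 3 lower (*Cldn10*, *Gjb1* and *Gjb2*), against 19% and 10.5% of all genes under that rescaling. After quantile normalization, a stronger rescaling, 11 were higher and the same 3 lower, against 14.9% and 11.6% of all genes, and *Cdh2*, *Cdh24* and *Gja1* were among those no longer called, while *Epcam* was still called. Scaled to the same FPKM total, 27 were higher and 0 lower, against 51.6% and 1.94% of all genes. Of the 44 genes, 7 averaged under 0.1 FPKM in 1 group and passed the filter only through the other; 4 of these are among the genes called higher. The 15 genes that did not pass the filter had a mean of at most 0.158 FPKM in either group, and 9 of them were listed at 0 in all sham mice.

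**Figure D1:**
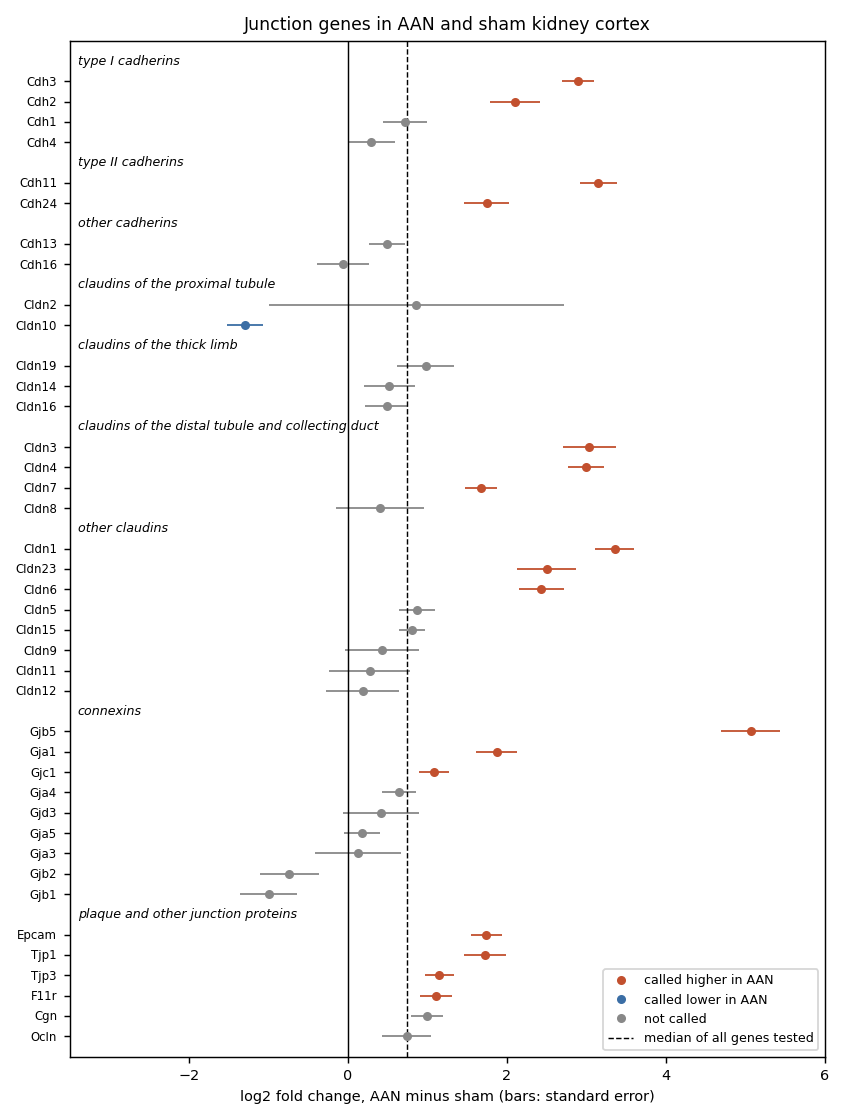
Log2 fold change (AAN minus sham, x axis) of 40 of the 44 junction genes tested, with the standard error as a bar, grouped by role. Orange points are 17 of the genes called higher, the blue point is *Cldn10*, called lower, and grey points were not called. The dashed line is the median of all genes tested at 0.75. Genes that averaged under 0.1 FPKM in 1 group, *Gjb5* among them, are drawn at fitted values that depend on the pseudocount.

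Neither abundant cadherin of the tubule was called. *Cdh16*, the kidney-specific cadherin of the tubule epithelium, was the most abundant junction gene by FPKM and was not called. It read 395, 153, 199 and 290.2 FPKM in the sham mice B607, B634, B636 and H249, the order used for all sham values, and from 155 (lowest) through 246 (median) to 429.6 FPKM (highest) in the 6 AAN mice. The groups overlapped over nearly their whole range, and the log2 fold change was -0.057 (SE 0.33, adjusted p = 0.888). After the median of ratios it was -0.82 (adjusted p = 0.02996). *Cdh1*, E-cadherin, the main epithelial cadherin, read 38.97, 15.8, 17.9 and 26.8 FPKM in sham mice and from 28.96 (lowest) through 36.5 (median) to 60.7 FPKM (highest) in AAN mice. The highest sham value lay above the AAN median. Its log2 fold change of 0.72 (SE 0.28, adjusted p = 0.0415) stayed under 2-fold and was -0.042 (adjusted p = 0.897) after the median of ratios. Within each mouse *Cdh16* exceeded *Cdh1* by less in AAN: the log2 difference was 3.27 to 3.47 in sham mice but 2.33 to 2.896 in AAN mice, a change of -0.78 (SE 0.11, exact two-sided permutation p = 0.00476, adjusted over the 13 differences 0.03095). The ranges did not overlap, and 0.00476 is the smallest p that 4 against 6 mice allow. The call was lost after quantile normalization, where the change was -0.46. It was also lost without any mouse other than B636 or B614, although the change stayed between -0.84 and -0.72. Leaving out a mouse raises the smallest possible p, so the losses without a mouse cannot show that the difference rests on that mouse.

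Of the 8 cadherins tested, 4 were called higher and none lower. *Cdh11*, a type II cadherin of mesenchymal cells, read 1.21, 2.45, 1.297 and 1.34 FPKM in sham mice and from 11.5 (lowest) through 13.2 (median) to 21.4 FPKM (highest) in AAN mice. Every AAN mouse was far above every sham mouse, with a log2 fold change of 3.15 (SE 0.23, adjusted p = 5.86e-07), or 2.41 (adjusted p = 2.85e-05) after the median of ratios. Against the mean log2 value of the 8 fibroblast markers of the same mouse, *Cdh11* changed by 0.16 (SE 0.18, exact two-sided permutation p = 0.343, adjusted over the 13 differences 0.392). *Cdh3*, P-cadherin, a classical cadherin of basal and placental epithelium, read 2.36, 1.22, 1.498 and 2.26 FPKM in sham mice and from 11.9 (lowest) through 13.6 (median) to 16.6 FPKM (highest) in AAN mice. Its groups were also separate, and the log2 fold change was 2.89 (SE 0.201, adjusted p = 4.05e-07), or 2.15 (adjusted p = 9.80e-07) after the median of ratios. It lies 46053 bases from *Cdh1* on chromosome 8 of GRCm38 (106510891 to 106557297 against 106603351 to 106670246, both on the + strand), which was not called. *Cdh2*, N-cadherin, read 0.326, 0.203, 0.2899 and 0.384 FPKM in sham mice and from 1.05 (lowest) through 1.47 (median) to 3.47 FPKM (highest) in AAN mice. The highest AAN value was that of B666, the groups did not overlap, and the log2 fold change was 2.103 (SE 0.31, adjusted p = 1.36e-04), or 1.47 (adjusted p = 0.001102) after the median of ratios. The log2 difference *Cdh2* minus *Cdh1* within each mouse was higher in AAN by 1.38 (SE 0.36, exact two-sided permutation p = 0.0143, adjusted over the 13 differences 0.0619), which did not pass. *Cdh24*, a type II cadherin, read 0.461, 0.139, 0.401 and 0.2001 FPKM in sham mice and from 0.7004 (lowest) through 1.26 (median) to 1.45 FPKM (highest) in AAN mice. All AAN values lay above the sham values, with a log2 fold change of 1.74 (SE 0.29, adjusted p = 2.88e-04), or 1.13 (adjusted p = 0.00509) after the median of ratios.

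Of the 2 claudins grouped here under the proximal tubule, 1 was called lower. *Cldn10*, which in its tubule forms makes paracellular pores, was the only junction gene called lower. It read 53.1, 32.6, 41.2 and 50.2 FPKM in sham mice and from 12.1 (lowest) through 17.6 (median) to 27.4 FPKM (highest) in AAN mice. Each AAN mouse was below each sham mouse, and the log2 fold change was -1.29 (SE 0.23, adjusted p = 4.85e-04), or -2.05 (adjusted p = 7.20e-06) after the median of ratios. At the same FPKM total it was -0.93 and not called. Gene values do not separate its isoforms (chromosome 14, 118787908 to 118875489, + strand), so the fall cannot be assigned to a single tubule segment. *Cldn2*, the cation and water pore of the proximal tubule, read 150.3, 26.7, 0.0149 and 93.3 FPKM in sham mice. The 6 AAN mice A483, B614, B630, B639, B642 and B666 read 1.32, 129, 12.00, 35.6, 94.8 and 43.04 FPKM. Sham B636 and AAN A483 stood far below all other mice. The log2 fold change of 0.86 (SE 1.85, adjusted p = 0.698) carried no call. It was 0.21 (adjusted p = 0.9402) after the median of ratios, and -1.46 without sham B636. The log2 difference *Cldn10* minus *Cldn2* changed by -2.15 (SE 2.498, exact two-sided permutation p = 0.395, adjusted over the 13 differences 0.395), and *Cldn2* minus the mean of the proximal tubule markers by 2.52 (SE 2.44, exact two-sided permutation p = 0.286, adjusted over the 13 differences 0.384).

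None of the 3 claudins grouped here under the thick limb, which leave out *Cldn10*, was called. *Cldn16*, the claudin of magnesium and calcium reabsorption, read 4.26, 5.01, 3.91 and 7.04 FPKM in sham mice and from 3.85 (lowest) through 8.02 (median) to 9.54 FPKM (highest) in AAN mice, with a log2 fold change of 0.49 (SE 0.27, adjusted p = 0.131), or -0.26 (adjusted p = 0.473) after the median of ratios and -0.24 (adjusted p = 0.549) after quantile normalization. *Cldn19*, its partner in the same strands, read 4.58, 3.05, 2.18 and 5.900 FPKM in sham mice and from 3.87 (lowest) through 8.11 (median) to 13.1 FPKM (highest) in AAN mice, with a log2 fold change of 0.98 (SE 0.36, adjusted p = 0.0335), or 0.23 (adjusted p = 0.629) after the median of ratios. Both genes overlapped between the groups. *Cldn16* minus the mean of the 5 thick limb markers (*Umod*, *Slc12a1*, *Egf*, *Ppp1r1a* and *Kcnj1*) was higher in AAN by 1.76 (SE 0.42, exact two-sided permutation p = 0.0238, adjusted over the 13 differences 0.0774), and *Cldn19* minus *Cldn16* by 0.49 (SE 0.23, exact two-sided permutation p = 0.0476, adjusted over the 13 differences 0.124). Neither passed after adjustment.

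Of the 4 claudins of the distal tubule and collecting duct, 3 were called higher. *Cldn4*, which takes part in chloride passage in the collecting duct, read 9.75, 5.18, 6.86 and 6.95 FPKM in sham mice and from 38.1 (lowest) through 54.6 (median) to 82.9 FPKM (highest) in AAN mice. The lowest AAN mouse stood well above the highest sham mouse, and the log2 fold change was 2.995 (SE 0.23, adjusted p = 7.20e-07). *Cldn3*, a sealing claudin, read 4.04, 5.86, 3.57 and 7.56 FPKM in sham mice and from 17.4 (lowest) through 48.6 (median) to 63.97 FPKM (highest) in AAN mice. Its AAN minimum came from B614, still above all sham mice, and the log2 fold change was 3.04 (SE 0.34, adjusted p = 1.31e-05). After the median of ratios the log2 fold changes of *Cldn4* and *Cldn3* were 2.24 and 2.28. The genes are neighbours on chromosome 5, *Cldn4* at 134945119 to 134946934 and *Cldn3* at 134986214 to 134987472 (GRCm38). *Cldn7*, a basolateral claudin of the distal nephron, read 4.54, 3.97, 5.31 and 5.97 FPKM in sham mice and from 10.5 (lowest) through 16.1 (median) to 20.3 FPKM (highest) in AAN mice. The groups were separate, with a log2 fold change of 1.67 (SE 0.203, adjusted p = 2.66e-05), which fell under 2-fold after the median of ratios at 0.92 (adjusted p = 0.00183). *Cldn8*, which recruits *Cldn4* to the tight junction, read 36.4, 8.09, 10.2 and 19.00 FPKM in sham mice and from 9.89 (lowest) through 19.3 (median) to 69.3 FPKM (highest) in AAN mice. The groups overlapped, the highest AAN value was that of B614, and the log2 fold change was 0.41 (SE 0.55, adjusted p = 0.535), or -0.35 (adjusted p = 0.601) after the median of ratios and -0.068 (adjusted p = 0.928) after quantile normalization. The log2 difference *Cldn7* minus *Cldn8* changed by 1.27 (SE 0.704, exact two-sided permutation p = 0.138, adjusted over the 13 differences 0.224). *Cldn8* minus the mean of the 9 distal and collecting duct markers changed by 0.899 (SE 0.43, exact two-sided permutation p = 0.0571, adjusted over the 13 differences 0.124). Of those 9 markers none was called higher and 1, *Pvalb*, was called lower, and their sum was 395 to 794 FPKM in sham mice and 269 to 1062 FPKM in AAN mice.

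Among the other claudins 3 of 8 were called higher. *Cldn1*, which seals the tight junction of the epidermis and of the parietal cells of Bowman's capsule, had the largest log2 fold change of the claudins. It read 4.17, 3.56, 3.29 and 4.17 FPKM in sham mice and from 23.03 (lowest) through 43.9 (median) to 56.3 FPKM (highest) in AAN mice (chromosome 16, 26356642 to 26371841, - strand). The sham mice lay close together, all AAN mice were above them, and the log2 fold change was 3.36 (SE 0.25, adjusted p = 5.96e-07), or 2.604 (adjusted p = 3.43e-06) after the median of ratios. Its neighbour on chromosome 16, *Cldn16*, was the uncalled thick limb claudin given above. *Cldn6*, a claudin of embryonic epithelium, read 0.531, 0.587, 0.887 and 0.362 FPKM in sham mice and from 1.903 (lowest) through 3.697 (median) to 4.76 FPKM (highest) in AAN mice. It was separate between the groups at a lower level, with a log2 fold change of 2.43 (SE 0.28, adjusted p = 1.79e-05), or 1.74 (adjusted p = 5.46e-04) after the median of ratios. *Cldn5*, the claudin of endothelium, read 4.32, 6.56, 8.08 and 7.29 FPKM in sham mice and from 8.15 (lowest) through 11.9 (median) to 15.7 FPKM (highest) in AAN mice. The groups did not overlap, but the log2 fold change of 0.87 (SE 0.22, adjusted p = 0.00548) was under 2-fold. It was 0.11 (adjusted p = 0.759) after the median of ratios and 0.23 (adjusted p = 0.538) after quantile normalization. None of the 8 endothelial markers was called, and *Cldn5* minus their mean changed by 0.503 (SE 0.34, exact two-sided permutation p = 0.1095, adjusted over the 13 differences 0.203). *Cldn15*, a pore-forming claudin of the gut, averaged 2.09 ± 0.446 FPKM in sham mice and 3.67 ± 0.285 FPKM in AAN mice (SD, n = 4 and 6), with a log2 fold change of 0.81 (SE 0.16, adjusted p = 0.00124), or 0.068 (adjusted p = 0.757) after the median of ratios and -0.12 (adjusted p = 0.564) after quantile normalization. *Cldn12* averaged 2.44 ± 1.24 FPKM in sham mice and 2.75 ± 1.62 FPKM in AAN mice, with a log2 fold change of 0.19 (SE 0.46, adjusted p = 0.732), or -0.54 (adjusted p = 0.328) after the median of ratios and -0.76 (adjusted p = 0.164) after quantile normalization. Differences of *Cldn1* and *Cldn4* from *Cldn2* changed by 2.49 (SE 2.52, exact two-sided permutation p = 0.295, adjusted over the 13 differences 0.384) and 2.13 (SE 2.56, exact two-sided permutation p = 0.362, adjusted over the 13 differences 0.392).

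**Figure D2:**
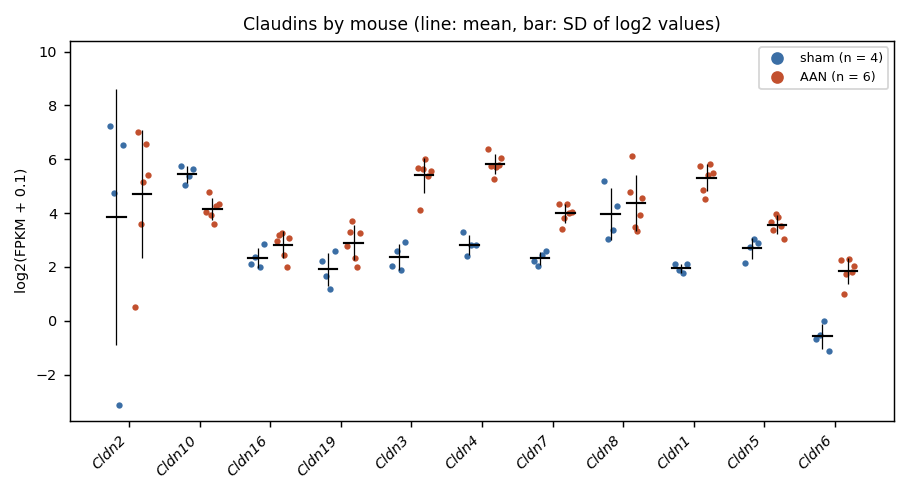
Log2(FPKM + 0.1) of 11 claudins in each mouse, blue for the 4 sham and orange for the 6 AAN mice, with the mean as a line and the SD as a bar. *Cldn1*, *Cldn3*, *Cldn4*, *Cldn6* and *Cldn7* separate the groups upward and *Cldn10* downward, while *Cldn2* spreads widely through sham B636 and AAN A483.

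Of 12 connexins tested, 6 were called higher and none lower. *Gjb5*, a connexin of skin and other stratified epithelium, was at or near 0 in sham mice. *Gjb5* read 0.0332, 0, 0 and 0.106 FPKM in sham mice and from 1.85 (lowest) through 4.12 (median) to 7.18 FPKM (highest) in AAN mice. It was present in every AAN mouse, lowest in B614. *Gjb5* has 1 annotated transcript, so its fragments could be recovered: about 0.998, 0, 0 and 2.997 in the sham mice against 49.9 to 195 in the AAN mice. A value of 0 allows up to 3 fragments, 0.1101 FPKM for *Gjb5* in B634, counting error only. No fold or p is given, since *Gjb5* passed the filter only through the AAN mice and its fitted value depends on the pseudocount. *Gjb5* lies at chromosome 4, 127354809 to 127358181, - strand (GRCm38). *Gja4*, an endothelial connexin, averaged 2.54 ± 0.936 FPKM in sham mice and 3.87 ± 0.471 FPKM in AAN mice, with a log2 fold change of 0.64 (SE 0.21, adjusted p = 0.0201) as deposited. It turned negative under rescaling, at -0.096 (adjusted p = 0.749) after the median of ratios and -0.25 (adjusted p = 0.361) after quantile normalization.

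*Gjb1* and *Gjb2*, the most abundant connexins of this cortex, were not called as deposited. *Gjb1* (connexin 32, known from hepatocytes and Schwann cells and also made in the tubule) read 35.9, 16.3, 18.5 and 27.4 FPKM in sham mice and from 7.61 (lowest) through 9.78 (median) to 29.7 FPKM (highest) in AAN mice. The highest AAN value, in B614, lay above most sham mice, and the other 5 AAN mice were below all of them. The log2 fold change of -0.99 (SE 0.36, adjusted p = 0.0301) just missed the fold limit, was -1.26 and called without B614, and passed too without B666, B634 or B636. After the median of ratios it was -1.75 (adjusted p = 0.00104). *Gjb2* averaged 27.2 ± 8.45 FPKM in sham mice and 17.8 ± 10.7 FPKM in AAN mice, with a log2 fold change of -0.74 (SE 0.37, adjusted p = 0.105) as deposited and -1.497 (adjusted p = 0.00362) after the median of ratios. *Gja1* (connexin 43, found in stromal, vascular and many other cells) read 0.552, 0.569, 0.919 and 0.879 FPKM in sham mice and from 2.09 (lowest) through 2.79 (median) to 4.62 FPKM (highest) in AAN mice. The groups were separate, with a log2 fold change of 1.87 (SE 0.26, adjusted p = 8.36e-05), or 1.17 (adjusted p = 0.00196) after the median of ratios. Within each mouse *Gja1* minus *Gjb1* rose by 2.87 (SE 0.49, exact two-sided permutation p = 0.00476, adjusted over the 13 differences 0.03095), from -5.79 to -4.19 in sham mice to -3.701 to -1.42 in AAN mice. That call was lost after quantile normalization, at 2.16, and without any mouse other than B636 or B614, at 2.55 or more. The losses without a mouse have the limit given for *Cdh16* minus *Cdh1*, a larger smallest p. *Gjc1* (connexin 45) read 0.344, 0.3403, 0.5202 and 0.5002 FPKM in sham mice and from 0.828 (lowest) through 1.04 (median) to 1.104 FPKM (highest) in AAN mice. Its log2 fold change was 1.09 (SE 0.19, adjusted p = 3.88e-04), and it was 0.43 (adjusted p = 0.0816) after the median of ratios and -0.17 (adjusted p = 0.429) after quantile normalization. *Gja5* (connexin 40 of arteries and renin cells) averaged 0.895 ± 0.276 FPKM in sham mice and 1.01 ± 0.188 FPKM in AAN mice, with a log2 fold change of 0.18 (SE 0.22, adjusted p = 0.495) as deposited. It turned negative under rescaling, at -0.51 (adjusted p = 0.0413) after the median of ratios and -0.99 (adjusted p = 0.00151) after quantile normalization.

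**Figure D3:**
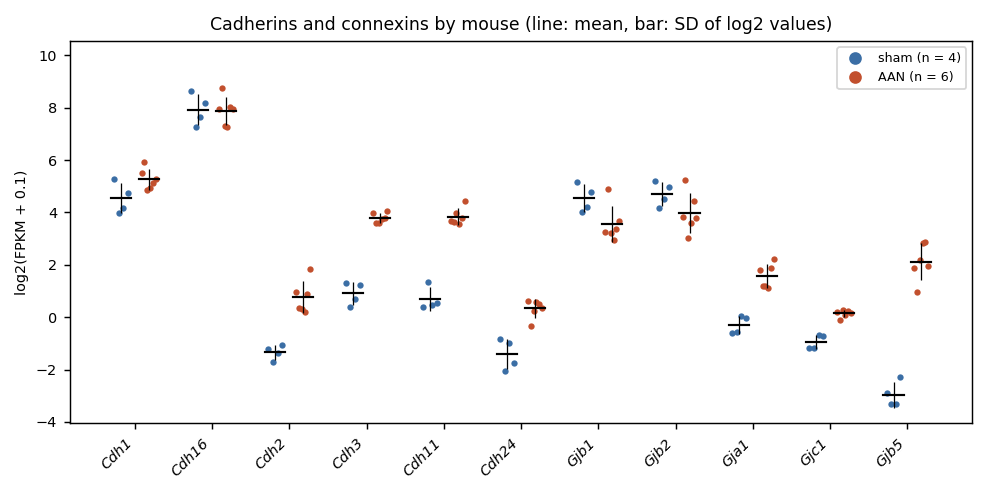
Log2(FPKM + 0.1) of 6 cadherins and 5 connexins in each mouse, blue for the 4 sham and orange for the 6 AAN mice, with the mean as a line and the SD as a bar. *Cdh16* overlaps fully, *Cdh3*, *Cdh11* and *Gja1* separate the groups, and *Gjb5* lies near the lower end of the scale in all sham mice.

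Shares of the summed FPKM of a family do not change with a factor common to a mouse. *Gjb1* and *Gjb2* together made up 88.5% to 94.6% of the connexin FPKM in sham mice but 46.3% to 81.9% in AAN mice. *Gjb5* made up 0% to 0.161% in sham mice but 2.25% to 16.7% in AAN mice. *Cdh16* held 88.2% to 90.2% of the cadherin FPKM in sham mice but 72.4% to 83.01% in AAN mice. With *Cldn2* left out of the sum, *Cldn10* held 40.5% to 45.5% of the claudin FPKM in sham mice but 5.05% to 11.05% in AAN mice. *Cldn1*, *Cldn3*, *Cldn4* and *Cldn7* together held 17.2% to 23.99% in the sham group, and in the AAN group 44.6% to 74.8%. None of these ranges overlapped between the groups, and B614 was the AAN mouse nearest to sham in 11 of the 22 called genes. These sets of genes were put together with their changes known, so the shares carry no test.

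**Figure D4:**
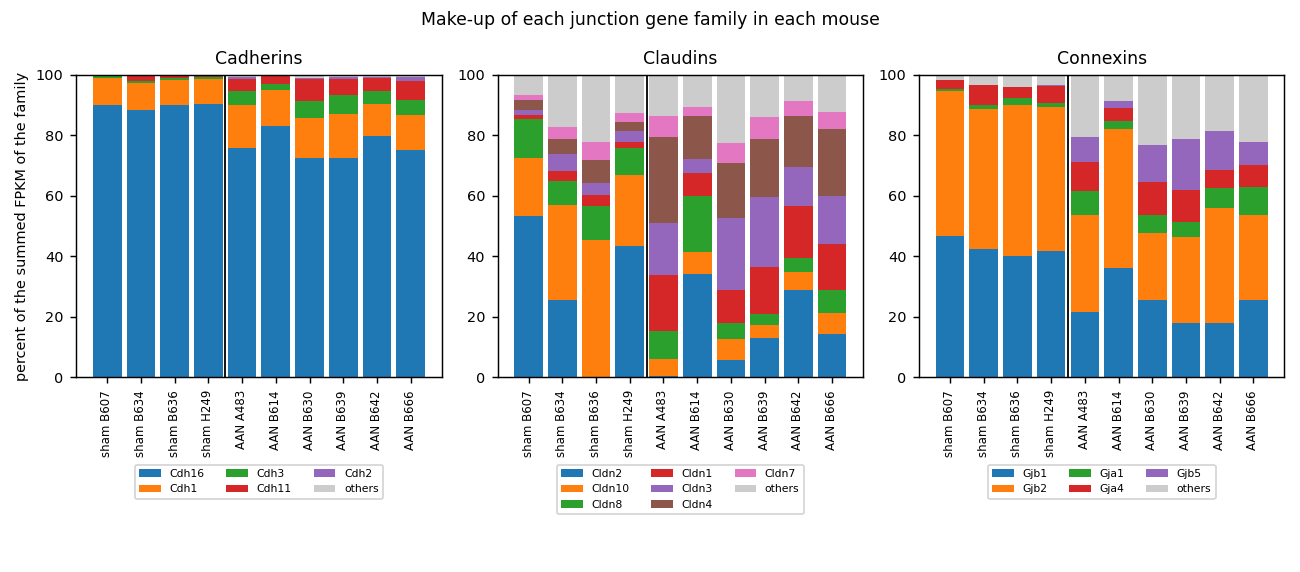
Percent of the summed FPKM of the cadherins, claudins and connexins held by named genes in each mouse (bars), the 4 sham mice left of the black line and the 6 AAN mice right of it. *Gjb1* and *Gjb2* fill 88.5% to 94.6% of the connexin bar in sham mice but 46.3% to 81.9% in AAN mice, and AAN B614 looks most like sham.

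Of the 7 plaque and other junction proteins, 5 were called higher. *Epcam*, the epithelial adhesion molecule that binds *Cldn7*, read 16.5, 11.9, 12.00 and 20.4 FPKM in sham mice and from 40.4 (lowest) through 50.4 (median) to 63.1 FPKM (highest) in AAN mice. The groups were far apart, with a log2 fold change of 1.74 (SE 0.195, adjusted p = 1.39e-05), or 0.98 (adjusted p = 2.10e-04) after the median of ratios. *Tjp1* (ZO-1, the scaffold that links claudins to actin) read 4.08, 1.41, 2.01 and 2.31 FPKM in sham mice and from 5.55 (lowest) through 8.001 (median) to 9.83 FPKM (highest) in AAN mice, with a log2 fold change of 1.73 (SE 0.26, adjusted p = 1.53e-04). *Tjp3* read 4.12, 5.195, 6.29 and 5.13 FPKM in sham mice and from 7.94 (lowest) through 12.04 (median) to 14.6 FPKM (highest) in AAN mice, with a log2 fold change of 1.15 (SE 0.19, adjusted p = 2.53e-04). *F11r* (JAM-A, an adhesion molecule of the tight junction) read 26.3, 13.9, 18.7 and 22.99 FPKM in sham mice and from 31.4 (lowest) through 42.99 (median) to 51.3 FPKM (highest) in AAN mice, with a log2 fold change of 1.11 (SE 0.204, adjusted p = 6.26e-04). All 4 were separate between the groups. *F11r* was not called without B634, at 0.94. After the median of ratios the log2 fold changes of *Tjp1*, *Tjp3* and *F11r* were 0.99, 0.398 and 0.34, none of them called. *Cgn* (cingulin) averaged 2.85 ± 0.839 FPKM in sham mice and 5.65 ± 0.881 FPKM in AAN mice, with a log2 fold change of 0.99 (SE 0.200, adjusted p = 0.00113), or 0.25 (adjusted p = 0.218) after the median of ratios and 0.16 (adjusted p = 0.424) after quantile normalization. *Ocln* (occludin) averaged 1.503 ± 0.614 FPKM in sham mice and 2.56 ± 0.922 FPKM in AAN mice, with a log2 fold change of 0.74 (SE 0.31, adjusted p = 0.0549), or 0.017 (adjusted p = 0.961) after the median of ratios and -0.28 (adjusted p = 0.406) after quantile normalization. *Tjp3* overlaps Apba3, *Tjp1* overlaps Gm44794, *Cldn19* overlaps Gm12927 and *Gja5* overlaps Gpr89, so these values are uncertain where fragments are shared, and the use of strand in the counting is not stated in the sources used here.

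The E-box CACCTG, bound by Snail and Zeb factors, was searched on both strands in the 250 bases before the start of each gene in RefSeq (GRCm38.p6). It occurred in 12 of 54 promoters of the junction genes, from 11 of 40 genes with an entry, and in 17.2% of 32851 promoters of all genes. AACNGGTT, the motif of Grainyhead-like factors, occurred in 2 of the 54 and in 1.79% of all, and GTTAAT, an HNF1 half-site, in 7 of the 54 and in 6.43% of all. The 11 genes include genes called higher (*Cldn4*, *Cldn6*, *Cldn7*, *Epcam*, *F11r* and *Tjp3*) and genes not called (*Cldn14*, *Gja3*, *Gjb1*, *Gjb2* and *Ocln*), and 47.7% of all junction genes tested were called higher. The promoters of *Epcam*, *Cldn4* and *Cldn7* are shown because they hold the E-box and belong to genes called higher. Those of *Cldn4* and *Cldn7* were added after their values were seen. Only the *Cldn7* start with the E-box is printed, and the 250 bases before its first start (chr11:69964529-69964778) hold no match. Capitals mark CACCTG or its reverse complement CAGGTG. In *Epcam* (chr17:87635729-87635978, + strand) the first bases of the matches lie at -187 and -19 from the start, in *Cldn4* (chr5:134946935-134947184, - strand) at -14, and in *Cldn7* (chr11:69965171-69965420, + strand, the second of its starts) at -97 and -57. *Cdh1* and *Cdh16* had no promoter entry, so their absence from the 11 genes says nothing about the motif in their promoters.
Epcam: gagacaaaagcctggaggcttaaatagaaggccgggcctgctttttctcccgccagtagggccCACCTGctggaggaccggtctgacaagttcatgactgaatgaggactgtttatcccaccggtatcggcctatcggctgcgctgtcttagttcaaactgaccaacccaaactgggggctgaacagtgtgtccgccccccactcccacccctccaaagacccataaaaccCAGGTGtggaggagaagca
Cldn4: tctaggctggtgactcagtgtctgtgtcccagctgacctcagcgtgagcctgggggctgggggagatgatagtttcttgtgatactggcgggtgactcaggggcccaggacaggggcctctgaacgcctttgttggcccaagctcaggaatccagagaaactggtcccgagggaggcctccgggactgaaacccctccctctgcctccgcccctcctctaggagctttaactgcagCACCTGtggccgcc
Cldn7: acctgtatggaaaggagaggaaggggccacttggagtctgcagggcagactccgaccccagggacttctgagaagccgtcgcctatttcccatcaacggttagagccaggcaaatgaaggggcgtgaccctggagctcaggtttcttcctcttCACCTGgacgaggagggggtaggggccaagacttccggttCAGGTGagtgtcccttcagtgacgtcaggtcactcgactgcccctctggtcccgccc

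Of 29 tight junction partners tested 8 were called higher and none lower, with a median log2 fold change of 0.44 as deposited. After the median of ratios their median was -0.28. The medians of all genes tested were 0.75 and 0.06. The largest rise was that of *Jam2*, an adhesion molecule of endothelium, at 1.98 (adjusted p = 4.04e-05), or 1.27 after the median of ratios. Of 14 adherens junction partners 4 were called higher and none lower (median 0.68, or -0.065 after the median of ratios). *Ctnnd2*, a catenin known from neurons, averaged 0.0126 FPKM in the sham group against 0.465 FPKM in the AAN group. No fold or p is given for it, since it too passed the filter only through the AAN mice. Of 6 desmosome genes 4 were called higher (median 1.097), led by *Dsg2*, a desmosomal cadherin, at 2.04 (adjusted p = 2.05e-05). After the median of ratios the desmosome median was 0.42 and *Dsg2* 1.34. *Panx1*, the pannexin that forms ATP-releasing channels, was the only pannexin tested and rose by 3.79 (adjusted p = 5.61e-07), from 0.193 ± 0.0916 FPKM in sham mice to 3.97 ± 1.24 FPKM in AAN mice (SD). Its rise was 3.18 after the median of ratios. The background of 35.8% of all genes called higher applies to these counts as well.

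The remaining junction genes were low. Of the 9 tested members with a mean under 1 FPKM in both groups, 2 were called higher and 7 were not called, with log2 fold changes of 0.13 to 0.52.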

How the data were processed

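RNA of the kidney cortex of 4 sham and 6 AAN mice was sequenced by the authors as paired-end TruSeq libraries on the HiSeq Xten, mapped to GRCm38.p4 with HISAT2 2.0.4 and quantified with StringTie 1.3.0. The deposited values are FPKM for 21792 genes in each mouse, without counts and with no further scaling between mice stated. The authors tested with edgeR, which needs counts, so limma 3.58.1 (R 4.3.3; lmFit, eBayes with trend and robust) was run here on log2(FPKM + 0.1) for genes averaging 0.1 FPKM or more over the 10 mice. Symbols and positions came from GENCODE mouse release M21. Depth was recovered from values under 0.3 FPKM of genes with 1 transcript, 94.7% to 96.9% of which were whole fragments within 0.05. Nothing in the labels says that mice were pooled, and the labels give no batch. Differences within a mouse used an exact two-sided permutation test over all arrangements of the mice. Named genes were the called members with a mean of at least 1 FPKM and the genes of the 13 differences, with values by mouse, the uncalled members at that level by group values, and the called gene with the largest rise in each partner list. Of the members, 4 are counted but not reported by name here. The members and lists were chosen with earlier results of these data known. The fit was tested on simulated data. The alternatives were 2 other pseudocounts, 2 filters, 3 scalings, no variance trend, no fold limit, leaving out each mouse in turn, and the B tags by themselves. The marker lists were called higher and lower as follows, of those tested: proximal tubule 0 higher and 6 lower of 9, thick limb 0 higher and 2 lower of 5, podocyte 2 higher and 0 lower of 6, injured tubule 8 higher and 0 lower of 8, fibroblast 8 higher and 0 lower of 8, leukocyte 8 higher and 0 lower of 8, smooth muscle 3 higher and 0 lower of 5, Schwann cell and neuron 3 higher and 0 lower of 4, urothelium 0 higher and 0 lower of 3. Summaries and figures were made in Python 3.11.15 with scipy 1.17.1, numpy 2.4.6, matplotlib 3.10.9 and pandas 2.3.3.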

Additional observations from a re-analysis of the deposited data

Results flagged for a closer look

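In 9 of 90 groups of 4 or 6 mice, 1 mouse lay farther from the others than Dixon's 95% limit allows. Chance gives about 1 in 20, or 4.5. The groups are not independent, because a gene's value also enters its within-mouse differences, so the 9 cannot be weighed against 4.5. AAN B614 accounts for 4 of the 9. Its *Cldn8* was 69.3 FPKM against 9.89 to 27.5 FPKM in the other AAN mice, and its *Gjb1* 29.7 FPKM against 7.61 to 12.5 FPKM. Its log2 difference *Gja1* minus *Gjb1* was -3.701 against -2.04 to -1.42, and *Cldn16* minus the thick limb markers -4.17 against -2.43 to -1.799.

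In sham B636, whose *Cldn2* was near 0, the log2 difference *Cldn4* minus *Cldn2* was 5.92 against -3.93 to -2.34 for the rest of the sham group, and *Cldn2* minus the proximal tubule markers -9.91 against -1.72 to -0.278. In sham B634, *Cdh11* was 2.45 FPKM against 1.21 to 1.34 FPKM, and *Cdh11* minus the fibroblast markers was 0.822 against 0.1803 to 0.282. *Cdh2* in AAN B666 was 3.47 FPKM against 1.05 to 1.86 FPKM.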

How the results depend on the processing

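The count of 21 junction genes called higher was 14 with the median of ratios, 11 with quantile normalization and 27 at the same FPKM total, where 19%, 14.9% and 51.6% of all genes were called higher. It was 16 and 22 with pseudocounts of 1 and 0.01, 17 with a mean of at least 1 FPKM, 22 with no filter, 27 with no fold limit, 22 in the mice with B tags alone and 19 to 23 with 1 mouse left out. The 1 gene called lower became 3, 3 and 0 under those scalings, 2 with a pseudocount of 0.01, 2 with no fold limit and 1 to 2 with 1 mouse left out (*Gjb1* joined without B614, B666, B634 or B636). *Cgn* was called without A483, B614, B642, B607 or H249 (against 0.25 after the median of ratios and 0.16 after quantile normalization), and *Cldn19* without A483, B639, B642, B607 or H249. The rescaled values were tested on the genes that passed the filter as deposited. This was chosen after seeing the data, in place of a first run in which the filter was applied again to the rescaled values: there 14, 11 and 28 genes were higher and 3, 4 and 0 lower. After the median of ratios the log2 fold change turned negative for *Cdh1* (-0.042), *Cldn8* (-0.35), *Cldn12* (-0.54), *Cldn16* (-0.26), *Gja4* (-0.096) and *Gja5* (-0.51). After quantile normalization it did for *Cldn8* (-0.068), *Cldn12* (-0.76), *Cldn15* (-0.12), *Cldn16* (-0.24), *Gja4* (-0.25), *Gja5* (-0.99), *Gjc1* (-0.17) and *Ocln* (-0.28). *Gjc1* alone of these was called as deposited. The value of *Cdh16* turned positive at the same FPKM total (0.31) and in B tags alone (0.015). With 1 mouse left out it ran from -0.28 to 0.18, that of *Cldn12* from -0.27 to 0.44 and that of *Cldn2* from -1.46 to 1.99, lowest without sham B636. Of the within-mouse differences, *Cdh16* minus *Cdh1* lost its call after quantile normalization (-0.46), in B tags alone (-0.72) and without each mouse other than sham B636 and AAN B614 (-0.84 to -0.72). *Gja1* minus *Gjb1* did so in the same settings (2.16, 2.77 and 2.55 to 3.21). Fewer mice allow fewer arrangements and a larger smallest p. *Cdh2* minus *Cdh1* passed with a pseudocount of 0.01 (1.68) and without sham B636 or AAN B614 (range 1.17 to 1.59). *Cldn1* minus *Cldn2* passed without sham B636 (1.41 to 4.75), and *Cldn7* minus *Cldn8* (0.82 to 1.73) and *Cldn16* minus the thick limb markers (1.55 to 2.100) without AAN B614. *Cldn10* minus *Cldn2* ran from -3.19 to 0.14, positive without sham B636, and *Cdh11* minus the fibroblast markers was -0.23 with a pseudocount of 0.01. The cause of these changes was not tested. No paired analysis was possible because the groups share no replicate numbers.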
